A study of Saccharomyces cerevisiae with 16 samples.

Results

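The msn2 msn4 double mutant of budding yeast was measured at 10 and at 30 min of alkaline stress, and the change between these times was taken for every gene as the 4 arrays at 30 min minus the 4 arrays at 10 min. These are 8 of the 16 arrays of the series. The mutant is strain MCY5278, genotype msn2::kanMX4 msn4::hphMX4, in which both transcription factor genes carry drug resistance markers, and the control strain is W303-1A. Both strains grew in YPD, a rich glucose medium, at 28 °C. On each 2-colour array, RNA of cells given 20 mM KOH, which brought the medium to pH 8, was set against RNA of that strain after 20 mM KCl for an equal time. The series states 2 biological replicates per condition, each with a dye swap. Which arrays carry the same extracts is not stated, so the array was the unit, and p-values are too small where arrays share an extract. A gene was tested in the change where it had a value on at least 3 arrays at each time, which held for 2934 of the 6174 features.

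Msn2 and Msn4 are zinc finger factors that recognise STRE, the stress response element, in front of many general stress genes and that protein kinase A keeps out of the nucleus in growing cells. Alkaline medium disturbs the proton gradient on which much nutrient uptake of yeast depends, and phosphate, iron and copper become harder to take up. Calcium signalling through calcineurin and the factor Crz1, the Rim101 pathway and the nutrient regulons are known to act beside Msn2 and Msn4 in this stress. The mutant shows the time course of the response in cells without Msn2 and Msn4.

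Values below are deposited log ratios of KOH over KCl, read as log2 and centred on each array's median. The base and the direction are likely rather than stated: arrays of opposite dye correlated positively, and PHO89, a sodium phosphate transporter known to be induced by alkali, was positive on all 8 mutant arrays. A change of 1 is then a change of 2-fold in the ratio. Errors after ± are standard errors of a linear model over all 16 arrays, and p-values were adjusted over all genes tested. A gene is called where the adjusted p lies below 0.05. A bare number in brackets after a change or a strain difference is its adjusted p. Because a ratio compares a strain with itself, MSN2 and MSN4 do not check the deletion here. MSN2 had a change of 0.21 ± 0.20 (adjusted p = 0.575), and MSN4 had values on 2 arrays at 10 min and 3 arrays at 30 min and was not tested.

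Some arrays stood apart before any gene was tested. The mutant arrays held between 2073 and 5443 values, and array 1 at 10 min held the fewest and had a deposited median of -0.285. At 30 min, arrays 1 and 2 correlated at 0.865 and arrays 3 and 4 at 0.857 across genes, whereas correlations between these pairs were 0.542 to 0.643. The 10 min arrays correlated at 0.759 to 0.848 among themselves. Without arrays 1 and 2 at 30 min, 212 genes were called higher and 229 lower in the change. Without arrays 3 and 4, 121 were called higher and 331 lower. No 2 of the 16 arrays held identical values. Array titles are numbers in 2 ranges, with arrays 1 to 3 of each group in one and array 4 in the other. These ranges were read as a larger and a smaller slide series, which is an inference from the titles. Leaving out array 4 of every group is therefore the same as using the larger slide series alone.

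Between 10 and 30 min the KOH over KCl ratio of 435 of the 2934 genes changed (14.8%), with 152 higher at 30 min (5.18%) and 283 lower (9.65%). At an unadjusted p below 0.05, 787 of the 2934 changed in either direction. The median change of all genes tested was -0.06. At least 2-fold changes numbered 68 higher and 161 lower. Of the called genes, 133 higher and 265 lower had no overlap between the arrays of the 2 times, against 302 (10.3%) and 394 (13.4%) among all genes tested. At the edge of the call lay PRM5 with a change of 0.67 and an adjusted p of 0.0492 and COQ1 at -0.56 with 0.04998, while YCL020W at 1.20 and PUS7 at 0.53 both missed it with 0.0501. These 4 genes are named for their place at the threshold. Leaving out 1 array moved the number of higher genes to between 72 and 144 and that of lower genes to between 207 and 263. The lowest higher counts, 77, 77 and 72, were those without array 2, 3 and 4 at 10 min. Then 1912, 1948 and 1910 genes were tested rather than 2934. List counts below that leave out a 10 min array may likewise rest on fewer genes tested. With arrays of opposite dye averaged into 1 replicate, the 2 ways that join the closely correlated 30 min arrays, 1 with 2 and 3 with 4, gave 86 higher and 168 lower genes and 84 higher and 175 lower. The other 2 ways, which join arrays across those pairs, gave 220 and 283 and 372 and 414.

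Each gene was also placed by its 2 levels. At 10 min 1064 of 3042 genes differed between KOH and KCl (35.0%), with 543 higher (17.9%) and 521 lower (17.1%), and at 30 min 1707 of 4234 (40.3%), with 912 higher (21.5%) and 795 lower (18.8%). These levels use the same arrays as the change. A response was called transient where the gene was called at 10 min and the change was called towards or past 0, growing where the change was called away from 0, sustained where both times were called with one sign and the change was not, and late where only 30 min and the change were called. By that scheme 171 genes were transient, 452 sustained, 145 growing and 114 late. The transient class held 106 genes higher at 10 min, whose median level went from 1.41 to 0.20, and 65 genes lower at 10 min, whose median went from -0.88 to 0.17. Growth ran the other way: 13 genes grew upwards and 132 grew downwards, and 103 of the latter were cytosolic ribosomal protein genes. Late genes were 70 higher, at a median of 0.85 at 30 min, and 44 lower, at -0.77. Of the 145 genes that were at least 2-fold higher at 10 min, 72 were transient and 62 sustained, and of the 102 at least 2-fold lower, 28 were transient, 40 sustained and 22 growing.

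**Figure D1:**
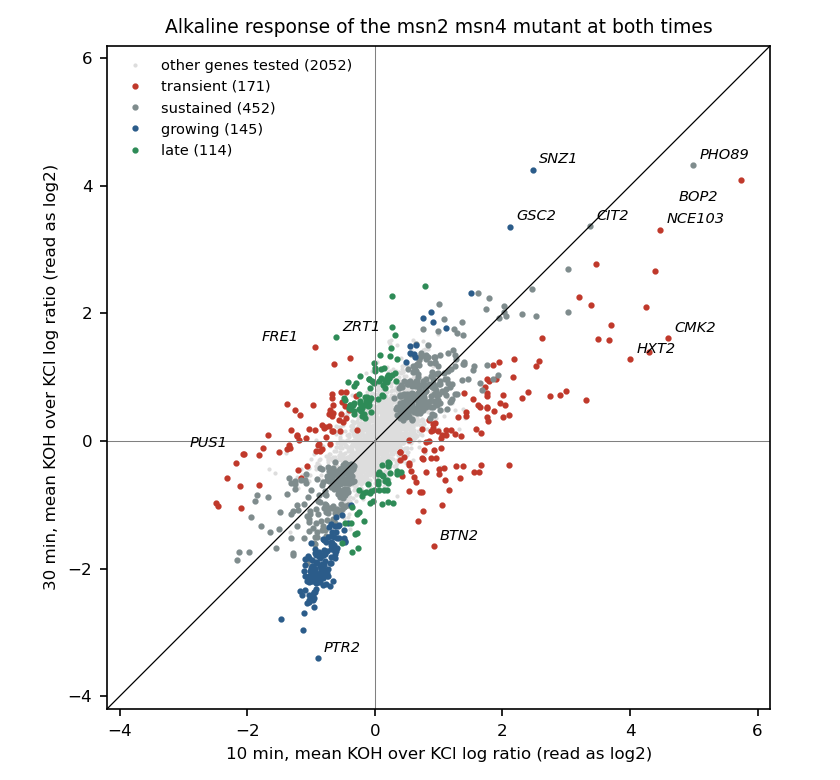
Mean KOH over KCl log ratio (read as log2) of the msn2 msn4 mutant at 10 min (horizontal axis) and 30 min (vertical axis), 1 point per gene, coloured by time class, with the line of equal values. The 171 transient genes lie towards the horizontal axis, BOP2, CMK2 and HXT2 far to the right, and the 145 growing genes form a cloud below the line at negative values together with SNZ1 and GSC2 above it.

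Of 12 calcineurin and Crz1 targets tested, 8 were lower at 30 min, against 9.65% of all genes tested, and 2 higher, with a median change of -0.97 while the median level went from 2.79 to 1.71. CMK2, a calmodulin-dependent protein kinase, showed the largest fall of all genes. Its 10 min arrays, given here and below in the order of arrays 1 to 4, read 4.92, 4.35, 4.93 and 4.18, and its 30 min arrays 1.13, 0.94, 2.14 and 2.24. Every 10 min array lay above every 30 min array, and at 30 min arrays 1 and 2 lay below arrays 3 and 4. The change was -2.99 ± 0.29 (adjusted p = 9.92e-06), and the level at 30 min was still 1.61. GYP7, which activates the GTPase of Rab proteins in vacuolar transport, read 3.69, 3.73, 3.55 and 3.69 at 10 min and 1.57, 1.49, 1.65 and 1.62 at 30 min. Its arrays spread by less than 0.2 at either time and did not overlap, with a change of -2.08 ± 0.15 (adjusted p = 5.79e-07). RCN2, a regulator of calcineurin, changed by -1.89 ± 0.29 (0.000409) from a level of 3.70 at 10 min. NCW2, a cell wall protein, changed by -1.25 ± 0.29 (0.00759), and without arrays 1 and 2 at 30 min by -0.77 with an adjusted p of 0.0967. The members that rose were GSC2 and CRH1, which also stand on the cell wall list. ENA1, the sodium pump that marks this stress, had 1 array at each time, 3.00 at 10 min and 0.68 at 30 min, and was not tested.

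Several of the highest early genes outside that list also came down by 30 min without reaching 0. YOR385W, which has no assigned role here, read 4.20, 4.69, 4.23 and 4.06 at 10 min and 0.98, 1.00, 1.75 and 1.88 at 30 min. The times did not overlap, and the change was -2.89 ± 0.26 (adjusted p = 6.62e-06). BOP2, the gene with the highest level at 10 min in the tested set, read 6.56, 5.52, 5.57 and 5.29 and then 4.24, 3.96, 4.13 and 4.03. All 30 min arrays lay below all 10 min arrays, the change was -1.65 ± 0.31 (adjusted p = 0.00163), and the level at 30 min remained 4.09. NCE103, carbonic anhydrase, read 4.41, 4.56, 4.81 and 4.10 and then 2.31, 2.75, 4.35 and 3.84. Here arrays 3 and 4 at 30 min lay within or close to the 10 min range, and arrays 1 and 2 lay well below it. The change of -1.16 ± 0.32 (adjusted p = 0.023) lost its call without array 1 or 3 at 10 min, without array 1 or 2 at 30 min, and without both of the latter (-0.38), and under quantile normalization it turned to 0.15 with no call. YMR316C-A changed by -2.16 ± 0.64 (0.0368) and lost its call without array 3 at 10 min (-1.75), array 4 at 10 min (-2.13) or arrays 3 and 4 at 30 min (-1.93).

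Of 12 hexose transport and glucose-repressed genes, 7 were lower at 30 min (9.65% of all genes were) and none higher, and the median level went from 0.69 to -0.16. HXT2, a high-affinity glucose transporter, read 3.32, 3.34, 4.89 and 4.48 at 10 min and 0.98, 1.08, 1.59 and 1.48 at 30 min. Arrays 3 and 4 were the higher at both times, and the times did not overlap. Its change was -2.72 ± 0.35 (adjusted p = 0.000113). HXT4 and HXT7, further hexose transporters, passed from above to below 0 in the mean, with changes of -1.93 ± 0.31 (0.00096) and -1.91 ± 0.25 (0.000139). HXT family members are near-identical in places, so their probes may share signal. MEP1, PUT1, PTR2 and GPA2 are named because they were among the 12 largest falls. MEP1, an ammonium permease, read 3.08, 3.39, 3.53 and 3.22 and then 0.83, 0.66, 0.73 and 0.37, a change of -2.66 ± 0.16 with the lowest adjusted p of the genes named, 5.32e-08. All 4 arrays were above 3 at 10 min and below 1 at 30 min. GPA2, the G alpha subunit that acts in glucose sensing upstream of protein kinase A, went from 3.02, 3.11, 2.99 and 2.90 to 0.57, 0.61, 1.13 and 0.85, again without overlap. Its change was -2.21 ± 0.22 (1.07e-05). PUT1, proline oxidase, changed by -2.17 ± 0.41 (0.00185), and its 30 min arrays split into 1.59, 1.30, 0.01 and 0.01. PTR2, the peptide permease, was already lower at 10 min and went further down, from -0.66, -0.41, -0.99 and -1.51 to -2.89, -3.14, -3.84 and -3.75. No array of 30 min reached the 10 min range, and the change was -2.51 ± 0.29 (adjusted p = 5.29e-05). Without array 3 or 4 at 10 min, 4 of the hexose list were called lower, and HXT4 had too few arrays to be tested there.

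**Figure D2:**
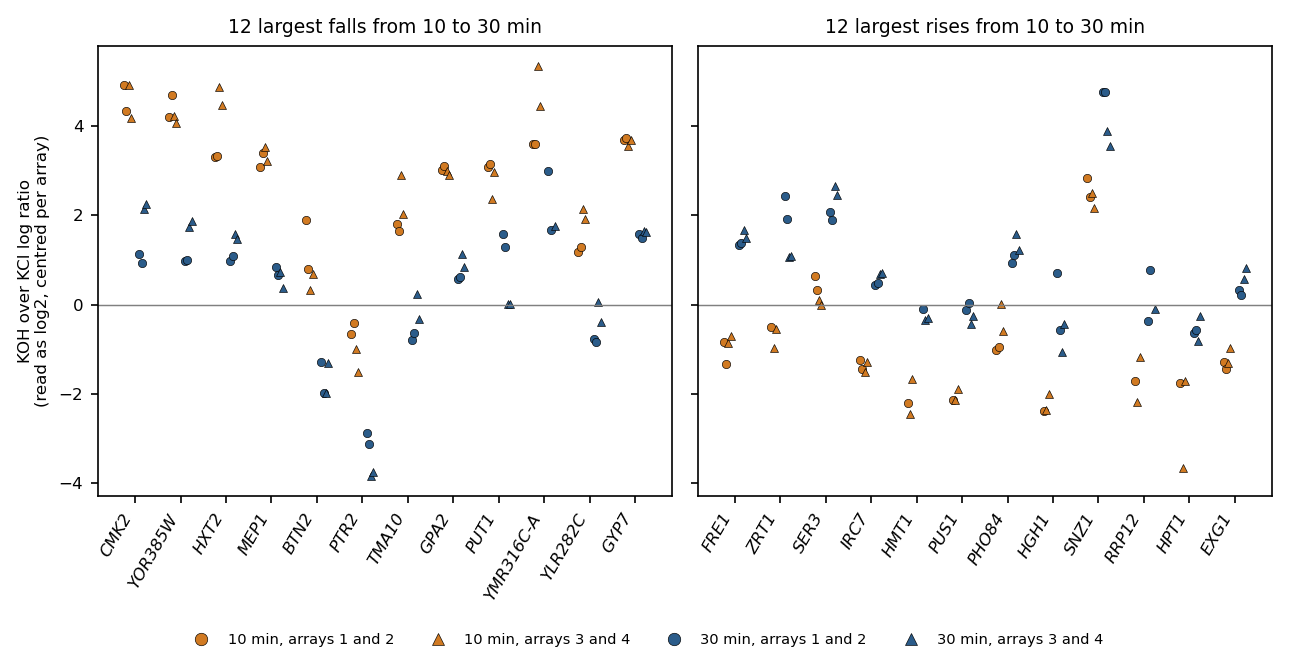
KOH over KCl log ratio (read as log2, centred per array) on each mutant array for the 12 genes with the largest falls (left) and the 12 with the largest rises (right) between 10 min (orange) and 30 min (blue), with circles for arrays 1 and 2 and triangles for arrays 3 and 4. The 24 genes were picked as the largest called changes on these same arrays. In each the points of the 2 times do not overlap, against 23.7% of all genes tested. HPT1 has 1 array at 10 min, at -3.67, far below the others.

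Among 20 STRE targets tested, chosen as known targets of Msn2 and Msn4, 5 were lower at 30 min and none higher, the median change was -0.36, and the median level went from 0.70 to 0.21. The share called lower, 5 of 20, compares with 9.65% of all genes. It was 3 of the list without array 1 at 10 min or without arrays 1 and 2 at 30 min, and 9 without arrays 3 and 4. A further 15 members had enough arrays only at 30 min. HXK1, a hexokinase, read 0.81, 0.82, 1.22 and 1.01 and then -0.68, -0.35, -0.22 and 0.21, a change of -1.23 ± 0.21 (adjusted p = 0.000849), with no overlap. GLC3, the glycogen branching enzyme, changed by -1.54 ± 0.34 (0.00732). YAK1, a kinase that opposes growth under protein kinase A control, read 1.89, 2.02, 1.42 and 1.75 and then 0.28, 0.25, 0.31 and 0.41. Its arrays did not overlap, and the change was -1.46 ± 0.18 (9.59e-05). CTT1, cytosolic catalase and a classic STRE gene, read -0.12, 0.07, -0.20 and -0.32 at 10 min and -0.78, -0.32, -0.36 and -0.66 at 30 min. It was not above 0.1 on any array, the times overlapped, and the change of -0.39 ± 0.21 had an adjusted p of 0.257. HSP12, a membrane-stabilising stress protein, had no value on the 10 min arrays and read -0.20, -0.21, 0.63 and 0.42 at 30 min. Of 9 trehalose and glycogen genes, 1 was lower, GLC3. None was called lower without array 1, 3 or 4 at 10 min, when GLC3 had too few arrays to be tested.

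Of 19 Hsf1 chaperone genes, 4 were lower at 30 min, against 9.65% of all genes, and the median level went from 0.16 to -0.41. At an unadjusted p below 0.05, 11 were lower, where 787 of all 2934 genes tested changed in either direction. BTN2, a factor in sorting of misfolded proteins, passed from 1.89, 0.79, 0.32 and 0.69 to -1.28, -1.99, -1.99 and -1.31. It was positive on all arrays at 10 min, below -1 on all arrays at 30 min, and changed by -2.57 ± 0.27 (adjusted p = 7.2e-05). MDJ1, a mitochondrial co-chaperone, changed by -0.98 ± 0.17 (0.00101). The count of 4 became 2 without arrays 1 and 2 at 30 min, 9 without arrays 3 and 4, and 1 or 2 with dye pairs averaged along the 30 min correlations. Of 41 mitochondrial ribosomal protein genes, 6 were lower and none higher (9.65% of all genes were lower), and the median level went from 0.11 to -0.42. At an unadjusted p below 0.05, 22 were lower, against the same 787 of 2934 genes in either direction. MRPL3, a protein of the large mitochondrial subunit, went from 0.19 to -0.61, a change of -0.80 ± 0.17 (0.00403). The mitochondrial count was 3 without array 2 or 4 at 10 min, 2 without array 3 at 10 min, without array 1 at 30 min or without arrays 1 and 2 at 30 min, and 13 without arrays 3 and 4. It was also 2 in a fit of the 8 mutant arrays alone and in the larger slide series, and 0 with dye pairs averaged along the 30 min correlations. In the TCA list, whose median level was 0.19 at both times, 3 of 13 genes were lower and 1 higher. Of all genes, 9.65% were lower and 5.18% higher. SDH1, a subunit of succinate dehydrogenase, had the largest fall of the TCA list with -1.09 ± 0.21 (0.00217). Without arrays 1 and 2 at 30 min 1 was lower, and without array 3 or 4 at 30 min none was higher.

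In the sustained class both times were called with one sign and the change was not called. CIT2, the peroxisomal citrate synthase of the retrograde response, read 3.44, 3.12, 3.55 and 3.39 at 10 min and 3.33, 3.38, 3.42 and 3.35 at 30 min. These ranges overlap, and the change was -0.0046 ± 0.20 (adjusted p = 0.992), although quantile normalization gave 0.90 and a call. PHO89 read 5.17, 4.84, 5.22 and 4.71 and then 4.67, 4.28, 4.39 and 3.96. Every 30 min array lay below the 10 min arrays, but the change of -0.66 ± 0.29 had an adjusted p of 0.144, so the gene counts as sustained. PRB1, vacuolar proteinase B, had levels of 3.02 and 2.70, and PYC1, pyruvate carboxylase, of 2.47 and 2.39. SUL1, a sulfate permease, had levels of 3.03 and 2.02, with a change of -1.01 ± 0.41 (0.119). All its 30 min arrays lay below its 10 min arrays, and its change was called in 7 of the 23 alternatives that could test it.

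Cytosolic ribosomal protein genes gave the most uniform movement. Of 117 tested, 107 were lower at 30 min than at 10 min and none higher, against 9.65% lower among all genes, and all 117 changes were negative. Their median level went from -0.86 to -1.95. The median of the 117 genes on single arrays was -0.74, -0.66, -0.87 and -1.18 at 10 min and -2.15, -1.99, -1.78 and -1.90 at 30 min. Every 30 min array lay below every 10 min array in that median. In 104 of the 117 genes all 30 min arrays lay below all 10 min arrays, against 13.4% of all genes tested. RPS22A, a small subunit protein, read -0.96, -0.79, -1.30 and -1.42 and then -2.92, -2.87, -3.10 and -2.96, a change of -1.84 ± 0.25 (adjusted p = 0.00017). RPL27B, a large subunit protein, changed by -1.64 ± 0.23 (0.000244), while RPS29A was positive on all 4 arrays at 10 min (0.44, 0.21, 0.85 and 1.50) and negative on all 4 at 30 min (-1.29, -1.45, -0.78 and -0.83). RPL3 and RPS20 were called at 30 min and not at 10 min, with changes of -1.14 ± 0.18 and -1.40 ± 0.24. Without single arrays, 92 to 105 of the list were called lower, and 80 without arrays 1 and 2 at 30 min. Quantile normalization, which forces all arrays to one distribution, left 23 called and a median change of -0.57. Outside this family 176 of 2817 genes were lower (6.25%). Paired ribosomal protein genes are near-identical and their probes may not separate them.

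**Figure D3:**
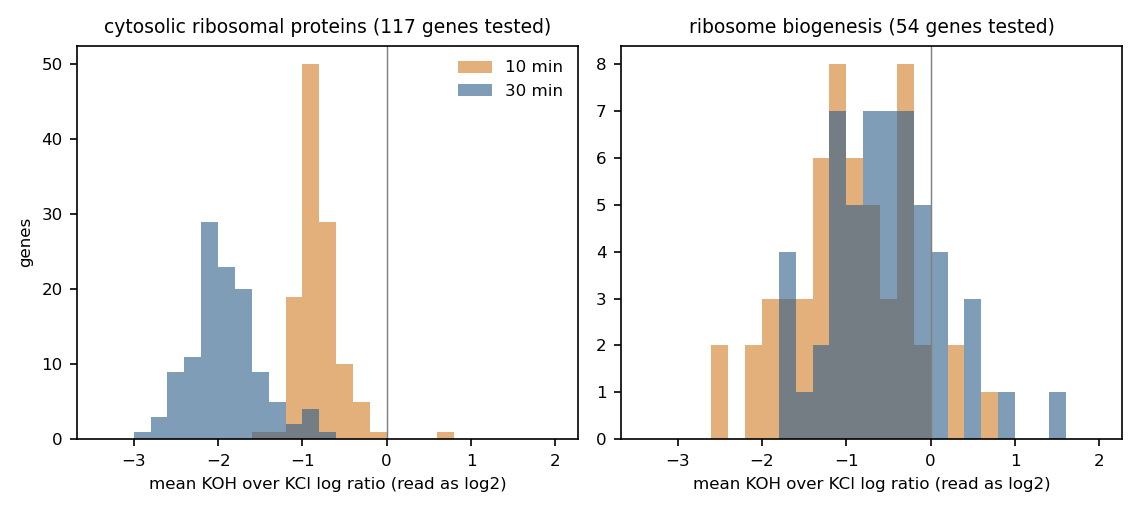
Number of genes by mean KOH over KCl log ratio (read as log2) at 10 min (orange) and 30 min (blue) for 117 cytosolic ribosomal protein genes (left) and 54 ribosome biogenesis genes (right), in the mutant. The ribosomal protein genes shift left, from a median of -0.86 to -1.95, and the biogenesis genes shift right, from -0.98 to -0.52, with much overlap.

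Of 54 ribosome biogenesis genes, 43 were lower in KOH at 10 min and 25 at 30 min. Among all genes tested at those times, 17.1% and 18.8% were lower. In the change 8 of the list were higher and none lower, with a median of 0.25. The median level went from -0.98 to -0.52. The higher share, 8 of 54, compares with 5.18% of all genes. The count was 2 without array 3 or 4 at 10 min, when 35 and 33 members were tested, 5 without array 2 at 10 min and 4 without array 3 or 4 at 30 min. RRP12, needed for export of the ribosomal subunits, had 3 arrays at each time, at -1.72, -2.19 and -1.18 and then -0.37, 0.78 and -0.09, and changed by 1.77 ± 0.42 (adjusted p = 0.0191). UTP4, of the small subunit processome, changed by 1.52 ± 0.33 (0.00801). BRX1 and ERB1, large subunit assembly factors, had changes of 0.24 ± 0.34 and 0.75 ± 0.47 that were not called (0.734 and 0.357). HMT1 and PUS1 are named from the 12 largest rises. HMT1, an arginine methyltransferase, read -2.22, -2.45 and -1.68 at 10 min and -0.09, -0.36 and -0.30 at 30 min. PUS1, a tRNA pseudouridine synthase, read -2.14, -2.14 and -1.89 and then -0.11, 0.03, -0.44 and -0.26. In both genes the 3 arrays at 10 min lay below -1.6 and all arrays at 30 min above -0.5, with changes of 1.87 ± 0.23 (0.000274) and 1.85 ± 0.19 (2.55e-05). HGH1, a chaperone-like factor for translation elongation, changed by 1.83 ± 0.30 (0.000973). HPT1, a purine salvage enzyme, changed by 1.74 ± 0.44 (0.015), with an array at -3.67 at 10 min, and lost its call without arrays 3 and 4 at 30 min (1.71, adjusted p = 0.0545). RRN11 of the RNA polymerase I core factor changed by 0.94 ± 0.17 (0.00112) and was the 1 gene called among 14 of RNA polymerases I and III.

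FRE1, a ferric and cupric reductase, had the largest rise of all genes tested. Its arrays read -0.83, -1.33, -0.87 and -0.70 at 10 min and 1.33, 1.39, 1.67 and 1.50 at 30 min. They were negative on every array at 10 min and above 1.3 on every array at 30 min, a change of 2.41 ± 0.21 (adjusted p = 6.62e-06). CTR1, the copper transporter that works with it, went from -0.70, -0.79, -0.59 and -0.73 to 0.12, 0.21, 0.94 and 0.70, a change of 1.19 ± 0.18 (0.000279). These were the 2 genes called higher among 10 of iron and copper uptake, at a list median of 0.68, while 8 were not called (5.18% of all genes were higher). ZRT1, the high-affinity zinc transporter, read -0.50, -0.97 and -0.54 and then 2.43, 1.91, 1.07 and 1.09, a change of 2.23 ± 0.36 (0.000939). Its 30 min arrays 1 and 2 lay above arrays 3 and 4, and all lay above the 10 min arrays. PHO84, the high-affinity phosphate transporter, read -1.01, -0.96, 0.02 and -0.59 and then 0.94, 1.11, 1.58 and 1.23. No 30 min array overlapped the 10 min arrays, and the change was 1.85 ± 0.25 (adjusted p = 0.000165). VTC3, of the polyphosphate polymerase, changed by 0.89 ± 0.20 (0.00622), and by 0.68 without arrays 3 and 4 at 30 min, when it was not called (adjusted p = 0.0629). Of 14 phosphate regulon genes 4 were higher, 10 not called and none lower, at a median of 0.64. That count was 2 without array 3 or 4 at 30 min, 7 without arrays 1 and 2 and 1 without arrays 3 and 4, in the larger slide series, or with dye pairs averaged along the 30 min correlations.

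Of 39 amino acid genes under Gcn4, 10 were higher (5.18% of all genes were), 29 not called and none lower. The median level went from 0.12 to 0.68. At an unadjusted p below 0.05, 22 were higher, where 787 of all 2934 genes tested changed in either direction. LYS20, homocitrate synthase of the lysine pathway, read -0.30, 0.17, 0.29 and -0.21 and then 0.59, 1.21, 1.81 and 1.27, a change of 1.23 ± 0.23 (adjusted p = 0.00156) with no overlap. CPA1, of arginine synthesis, grew from 0.89 to 2.03, a change of 1.14 ± 0.19 (0.000611). The count of 10 became 21 without arrays 1 and 2 at 30 min, 15 with values as deposited, 5 in the larger slide series and 6 or 8 with dye pairs averaged along the 30 min correlations. SER3, phosphoglycerate dehydrogenase of serine synthesis, read 0.65, 0.33, 0.11 and -0.01 at 10 min and 2.07, 1.91, 2.67 and 2.46 at 30 min, a change of 2.01 ± 0.25 (0.000106). Each of its 30 min arrays was above 1.9 and each of its 10 min arrays below 0.7. SNZ1, of vitamin B6 synthesis, was already high and grew, from 2.84, 2.41, 2.50 and 2.16 to 4.78, 4.78, 3.90 and 3.57. Its 30 min arrays 1 and 2 lay above arrays 3 and 4, without overlap with 10 min, and the change was 1.78 ± 0.29 (0.000618). IRC7, a putative cystathionine beta-lyase, passed from below to above 0 with 1.95 ± 0.17 (9.02e-06).

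Of 22 ergosterol genes, 8 were higher (5.18% of all genes were) and 1 lower, and the median level went from -0.12 to 0.29. ERG5, a sterol desaturase, read -1.08, -1.44, -1.53 and -1.19 and then -0.02, 0.01, 0.35 and 0.38, a change of 1.49 ± 0.16 (adjusted p = 4.94e-05). ERG11, the lanosterol demethylase, changed by 1.11 ± 0.17 (0.000313). Both were below -0.6 on every array at 10 min and above -0.1 on every array at 30 min. HMG1, the HMG-CoA reductase at the head of the pathway, changed by 1.19 ± 0.20 (0.000762). The higher count was 5 without array 3 at 10 min or array 3 or 4 at 30 min, 11 without arrays 1 and 2 at 30 min and 4 without arrays 3 and 4, in the larger slide series, or with dye pairs averaged along the 30 min correlations.

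Of 17 cell wall integrity genes, 8 were higher (5.18% of all genes were) and 1 lower, and the median level went from 0.55 to 1.07. GSC2, the stress-induced glucan synthase also known as FKS2, read 2.08, 2.05, 2.67 and 1.66 and then 3.71, 3.82, 3.26 and 2.66. Array 4 at 30 min lay just below the highest 10 min array, so the times overlapped. Its change was 1.25 ± 0.32 (adjusted p = 0.0138), and 0.85 without arrays 1 and 2 at 30 min, when it was not called. CRH1, a chitin transglycosylase, changed by 1.17 ± 0.26 (0.00788), and by 0.83 without arrays 3 and 4, also not called. Outside the list, EXG1, an exo-glucanase of the cell wall, read -1.28, -1.45, -1.32 and -0.98 and then 0.32, 0.21, 0.58 and 0.81, with the sign turned on every array and a change of 1.74 ± 0.17 (9.19e-06). PRY2, a secreted sterol-binding protein, rose late with 1.51 ± 0.19 (8.1e-05). The list count was 4 without array 2 or 3 at 10 min, 5 without array 4 at 10 min and 3 without arrays 3 and 4 at 30 min or in the larger slide series, and 4 or 2 with dye pairs averaged along the 30 min correlations.

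CLN2, a G1 cyclin, read -1.13, -0.75, -0.87 and -1.11 and then 0.59, 0.72, 0.39 and 0.59. It was below -0.7 on all arrays at 10 min and above 0.3 on all arrays at 30 min, a change of 1.54 ± 0.17 (adjusted p = 3.5e-05). MCD1, the cohesin kleisin, changed by 1.65 ± 0.27 (0.000793). In all, 4 of 14 G1/S and S phase genes were higher and 1 lower, and 2 of 8 M phase genes were higher, where 5.18% of all genes were. The first count was 2 without array 2 at 10 min or array 1 or 2 at 30 min and 1 without array 3 or 4 at 10 min, and the second 0 without array 1 at 10 min or array 3 or 4 at 30 min. Among glycolytic genes 2 of 18 were higher, where 5.18% of all genes were. They were PFK1 with 0.93 ± 0.22 (0.00886) and PFK2 with 0.91 ± 0.23 (0.0132), the 2 subunits of phosphofructokinase. Neither was called in the larger slide series, with dye pairs averaged along the 30 min correlations, or without arrays 3 and 4 at 30 min, at 0.83 and 0.74.

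**Figure D4:**
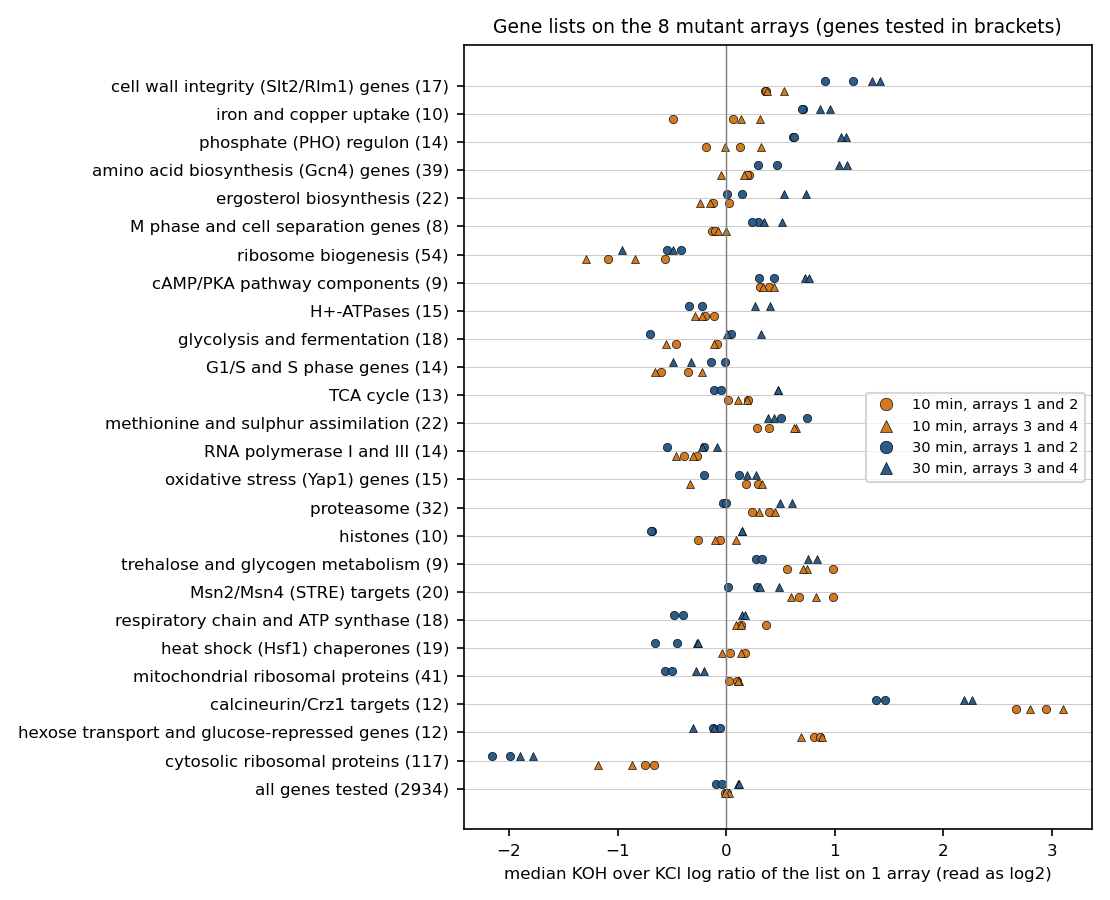
Median KOH over KCl log ratio (read as log2) of each gene list on each of the 8 mutant arrays, with 10 min in orange, 30 min in blue, circles for arrays 1 and 2 and triangles for arrays 3 and 4. Calcineurin targets lie far to the right at both times and move left by 30 min, and cytosolic ribosomal proteins lie at -2.15 to -1.78 on the 30 min arrays.

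Several lists had few or no calls in the change. None of 32 proteasome genes was called by the linear model (1 higher and 1 lower at an unadjusted p below 0.05). Nor was any of 10 histone genes (none at an unadjusted p below 0.05). At 30 min the histone median lay below -0.6 on arrays 1 and 2 and above 0.1 on arrays 3 and 4. Without arrays 1 and 2, 2 histone genes and 1 proteasome gene were called higher, and without arrays 3 and 4, 1 histone gene and 3 proteasome genes lower. The counts that follow stand beside 9.65% lower and 5.18% higher among all genes tested. Oxidative stress (Yap1) genes had 1 of 15 lower. Respiratory chain genes had 2 of 18 lower (none without array 2 at 10 min or arrays 1 and 2 at 30 min). Components of the cAMP and protein kinase A pathway had 2 of 9 lower. Vacuolar protease and autophagy genes had 1 of 6 in each direction, and H+-ATPase genes had 1 of 15 higher. That gene was VMA1, the catalytic subunit of the vacuolar ATPase, at 0.80 ± 0.20 (0.0121), which was not called without arrays 3 and 4 at 30 min (0.74, adjusted p = 0.0588). In the methionine and sulphur list 4 of 22 were lower and 1 higher, MET6. The higher count was 0 without any 1 array other than array 1 at 30 min. Without that array MET6 lost its call too, at 1.40 with an adjusted p of 0.0633. MHT1, a homocysteine methyltransferase, and MMP1, its S-methylmethionine permease, changed by -1.44 ± 0.23 (0.000973) and -1.46 ± 0.28 (0.00201). RIM8, the 1 Rim101-repressed gene tested, had a change of -0.69 ± 0.28 that was not called (0.121). It was called without array 2 at 30 min (-0.94) and without arrays 1 and 2 (-1.09). The mating type markers STE2 and SAG1 were not called (0.398 and 0.572).

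The same change was measured in wild type on 8 other arrays, so the strains share no array. There 472 of 2607 genes changed (18.1%), with 156 higher (5.98%) and 316 lower (12.1%). Over the 2328 genes tested in both strains, the median change was -0.05 in the mutant and 0.00 in wild type, and 367 genes were called in the mutant and 401 in wild type. The test of the difference between the 2 changes called 14 genes (0.601%), 13 with the higher change in the mutant (0.558%) and 1 with the lower (0.0430%). At an unadjusted p below 0.05 there were 406. The count was 0 without array 2, 3 or 4 at 10 min, when 1766, 1797 and 1763 genes were tested. It was also 0 without array 2 or 3 at 30 min and within the larger slide series. Without each of the other mutant arrays it was 5 to 9. Without array 1 or 2 of wild type at 30 min it was 0, without array 3 or 4 of that group 52 and 23, and without arrays 1 to 4 of wild type at 10 min 6, 11, 3 and 27. Under array weights it rose to 114 or 345, depending on the estimator.

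TPS2, trehalose phosphatase, had a change of -0.08 in the mutant and -2.23 in wild type, a difference of 2.14 ± 0.40 (adjusted p = 0.032). On the mutant arrays it read 0.91, 0.67, 0.80 and 0.37 and then 0.03, 0.26, 1.23 and 0.89. On the wild type arrays it read 2.53, 2.47, 3.16 and 2.40 at 10 min and -0.18, 0.15, 1.15 and 0.54 at 30 min. The times overlapped in the mutant and stood apart in wild type, where all values were lower at 30 min. PGM2, phosphoglucomutase, differed by 2.15 ± 0.43 (0.0325), with changes of -0.47 and -2.62. HSP104, the disaggregase, differed by 1.89 ± 0.38 (0.0325), with -0.60 in the mutant and -2.49 in wild type. HSP78, its mitochondrial relative, differed by 1.74 ± 0.36 (0.0447), MSC1 by 1.78 ± 0.30 (0.0278) and HXK1 by 1.65 ± 0.30 (0.0278). Of the genes that fell in both strains, HXK1 was called in each, at -1.23 and -2.88. FRE1 rose by 2.41 in the mutant and had 0.90 in wild type, a difference of 1.50 ± 0.30 (0.0325). URA1, dihydroorotate dehydrogenase, was the gene with the lower change in the mutant, 0.05 against 1.59. CHC1, the clathrin heavy chain, SSD1, an RNA-binding translation regulator, and FKS1, glucan synthase, had positive changes in the mutant and negative changes in wild type. The differences were 1.63 ± 0.28, 1.63 ± 0.29 and 1.41 ± 0.29. Both changes were called for CHC1. The mutant change of SSD1, 0.49 (0.152), and the wild type change of FKS1, -0.51 (0.0976), were not called. OSH2, ELP2 and VBA4 had the same signs. Their mutant changes of 0.04, 0.15 and 0.04 were not called, and their wild type changes were -1.45, -1.18 and -1.17.

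**Figure D5:**
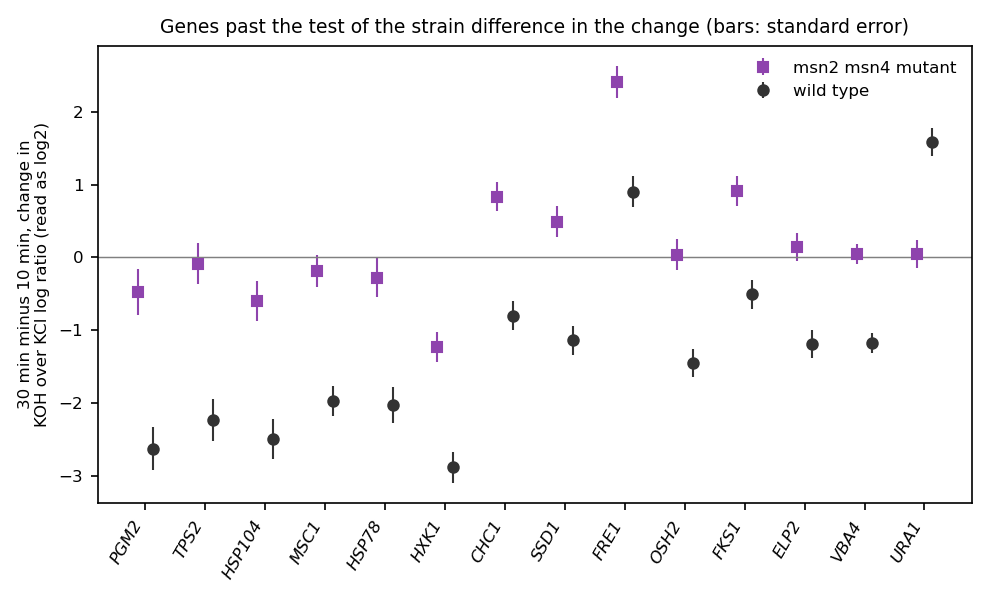
Change in KOH over KCl log ratio (read as log2) from 10 to 30 min in the msn2 msn4 mutant (squares) and in wild type (circles) for the 14 genes past the test of the difference, with standard errors as bars. The mutant lies above wild type in 13 genes, and URA1 is the exception.

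For several of the largest movements the wild type values stand beside those above. CMK2 changed by -2.38 in wild type, GYP7 by -2.20, MEP1 by -2.49, HXT2 by -3.20, PHO84 by 1.67 and SER3 by 2.18. The difference between the strains was not called for any of these 6 genes. It was -0.60 ± 0.41 for CMK2 (adjusted p = 0.454) and -0.17 ± 0.22 for MEP1 (0.701). STRE targets were 21 of 24 lower in wild type, at a median of -1.36, where 12.1% of all genes were lower. In the 18 tested in both strains, the median change was -0.43 in the mutant and -1.36 in wild type. The difference was called for 4 of these 18, against 0.601% of all genes tested in both strains. It had an unadjusted p below 0.05 for 12 of them, against 406 of all 2328 genes in either direction. Cytosolic ribosomal protein genes were 32 of 111 lower in wild type, at a median of -0.51, again beside 12.1% of all genes. No difference was called among 109 tested by the linear model. An unadjusted p below 0.05 was found for 52, all with the lower change in the mutant, beside the 406 of 2328 genes in either direction.

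For many genes the change could not be tested. In the mutant 1300 genes had values on at least 3 arrays at 30 min only, and of these 225 were higher and 175 lower in KOH at 30 min. Among the highest, named after their values were seen, were HXT5, a hexose transporter of slow-growing cells, at 2.21 ± 0.38, SNO1, the partner of SNZ1, at 2.16 ± 0.13, GDH2, the catabolic glutamate dehydrogenase, at 2.10 ± 0.26, and HMX1, heme oxygenase, at 2.10 ± 0.15. Among the lowest were YRO2, a membrane protein, at -2.96 ± 0.19 and the ribosomal protein gene RPL22A at -2.92 ± 0.17. A further 108 genes had enough arrays at 10 min only, with 16 higher and 29 lower, and 1832 at neither time.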

How the data were processed

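The deposited values are log ratios, 1 for each gene on each array, and were read here as log2. Per the labels, total RNA was copied into oligo(dT)-primed cDNA, labelled indirectly with Cy3 or Cy5. The scanner, background correction, normalization, filter behind empty values, log base and direction are not given in the sources used. Systematic names matched a RefSeq table for 5675 of 6174 features, and 5158 had a gene symbol.

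Array medians were subtracted. In R 4.3.3, the 16 arrays were fitted together by least squares, with a model that has the 4 groups and a dye term. The variances were moderated with limma 3.58.1, and the change was the 30 min minus the 10 min coefficient. Tests were two-sided, with empirical Bayes moderation and Benjamini-Hochberg adjustment over all genes tested, at 0.05. Genes were tested with values on at least 3 arrays of each group compared; missing values were not imputed. The steps were tested on simulated data. The number of arrays limits the precision. P-values measure the spread between arrays, which is partly technical.

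The members, the 29 lists and the tests were chosen with earlier results of these data known, so no list is independent evidence. Genes named are the 12 largest rises and falls, the 5 leading genes per class and direction, the 3 leading members per list (or 1 where none passed), the 5 leading strain differences each way and a fixed set of 11. Fewer are named, in rank order where possible. Genes outside the rule are marked or stand at the call's threshold, among those measured at 30 min only, or among the 14 strain differences. No promoter sequences were used here. Alternatives covered the dye term, arrays, slide series, centring, scale and quantile normalization, the filter on missing values, moderation, array weights, averaged dye pairs, single arrays left out and, added after seeing the data, 30 min arrays left out by pairs, wild type arrays left out and a second estimator of array weights.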

Additional observations from a re-analysis of the deposited data

Results flagged for a closer look

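Of 225 sets of 4 array values examined for the genes and lists named, 8 had 1 array far from the other 3 (3.56%), where chance gives about 1 in 20. In the mutant at 10 min, array 3 stood apart for NCW2, at 3.77 against 3.24 to 3.27 on the others, and for the median of the cell wall integrity list, at 0.54 against 0.36 to 0.38. Array 2 stood apart for the respiratory chain and ATP synthase list, at 0.37 against 0.09 to 0.14. In the mutant at 30 min, array 3 read -2.05 for ERB1 against -1.01 to -0.83, and array 2 read 0.37 for RRN11 against 0.17 to 0.21 and 0.02 for OSH2, an oxysterol-binding protein, against 0.21 to 0.24. In wild type, array 4 at 10 min read 0.94 for OSH2 against 1.40 to 1.47, and array 4 at 30 min read 0.01 for PGM2 against 1.05 to 1.25.

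The change from 10 to 30 min differed between the strains for 14 genes by the linear model's test of the difference. Mutant minus wild type was 2.15 for PGM2, 2.14 for TPS2, 1.89 for HSP104, 1.78 for MSC1, 1.74 for HSP78 and 1.65 for HXK1. It was 1.63 for both CHC1 and SSD1, 1.50 for FRE1, 1.48 for OSH2 and 1.41 for FKS1. ELP2, a subunit of Elongator, differed by 1.33 and VBA4, a predicted vacuolar transporter, by 1.21. URA1 differed by -1.54. Adjusted p-values over these genes lay between 0.0278 and 0.0447. None of the 14 was called without array 2, 3 or 4 at 10 min or array 2 or 3 at 30 min in the mutant. The same held without array 1 or 2 at 30 min in wild type. Not all of the 14 could be tested in these settings. PGM2, MSC1, HSP78, SSD1 and OSH2 had no value on array 1 at 10 min in the mutant. Leaving out another array of that group left too few values to test them. CHC1, with no value on array 4 of any group, could not be tested without any of arrays 1 to 3.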

How the results depend on the processing

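No paired analysis was possible because the labels give no replicate numbers that link arrays; arrays of opposite dye were averaged instead, in 4 ways. The naming rule picked 105 genes that were tested, not all of which are named above. Of these 105, 82 were called, 48 kept the call in all of the 27 alternatives that could test them, and 81 kept their sign. Some that often lost their call are not named above, such as DSE2 in 17 of 27 alternatives and ARO9 in 15. The sign turned in at least 1 alternative for 11 of the 105, of which NCE103 alone was called in the main analysis. Quantile normalization turned NCE103 to 0.15 (adjusted p = 0.850) and CIT2 to 0.90 with a call (adjusted p = 0.0174); the other 9, of which PHO89, PRB1, PYC1 and TPS2 are 4, were called in neither direction where they turned. Leaving out each mutant array in turn gave 72 to 144 higher and 207 to 263 lower genes in the change, 556 to 833 called at 10 min and 1244 to 1330 at 30 min. The same gave 87 to 148 transient, 242 to 396 sustained, 114 to 139 growing and 69 to 99 late genes, and 0 to 9 strain differences. With each wild type array left out as well, an alternative added after seeing the data, strain differences ran from 0 to 52 and the wild type change from 320 to 463 genes. Fewer genes have 3 values once a 10 min array is left out.

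The larger slide series alone, with 3 arrays a group, gave 64 higher, 647 called at 10 min, 1109 at 30 min, 105 transient, 223 sustained and 69 late genes, 299 in wild type and 0 strain differences. Values as deposited gave 196 higher and 230 lower against 152 and 283, and quantile normalization gave 169 and 150 with 43 growing genes. Strain differences numbered 38 as deposited, 24 centred on genes present on all arrays, 23 after scaling each array to one median absolute value, 9 after quantile normalization and 8 with values on all 4 arrays. Array weights by the default estimator, which stopped before converging, gave 244 higher, 1633 called at 10 min, 264 transient, 737 in wild type and 345 strain differences. The gene-by-gene estimator, tried after these were seen, gave 1613 at 10 min and 114 strain differences.

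Averaging arrays 1 with 2 and 3 with 4 at both times gave 86 higher, 168 lower, 667 called at 10 min, 900 at 30 min, 110 transient, 301 sustained, 85 growing and 53 late genes. Pairing 1 with 3 and 2 with 4 at 10 min only gave 84, 175, 696 and 942, with 110 transient, 95 growing and 52 late genes. Pairing them so at both times gave 372 higher genes, 319 transient, 220 growing and 241 late. The cause of these shifts was not tested, and signal over background is not known from log ratios.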

Other observations

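Among genes with names beginning YLR, which lie on the right arm of chromosome XII, 35 of 227 were lower at 30 min than at 10 min (15.4%), against 248 of 2707 elsewhere (9.16%). Other arms had higher or like shares: YHL 6 of 24 (25%), YLL 6 of 32 (18.8%) and YMR 14.5%. The 6 pairs among DML1, AVO2, NUP53 and DSS1, genes of unlike function whose names place them on the right arm of chromosome XIII, correlated at 0.976 to 0.993 over the 8 mutant arrays. These genes were noticed after their values were seen, and the arrays are shared by all pairs.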
